A study of Homo sapiens with 6 samples.

Results

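The 9 genes described here, AFP, GPC3, IGF2, IGF2BP1, IGF2BP3, LIN28B, DLK1, PEG10 and SPINK1, are oncofetal liver tumor markers. They were chosen by name, with earlier results of these data known, and they are 9 of the 61541 genes counted. HepG2 is a human hepatoblastoma cell line, and sedanolide is a phthalide found in celery that was studied here as an activator of the KEAP1–NRF2 antioxidant pathway. RNA sequencing compared 3 control libraries with 3 libraries from cells exposed to 100 µM sedanolide for 24 h. Sedanolide was kept as a stock solution in DMSO, and the authors state an upper limit for the final DMSO concentration. No vehicle is named for the control cultures in the sources used here, so whether the groups also differed in solvent is not known.

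Both groups were the same luciferases-expressing HepG2 cells. These carry a red-emitting luciferase, SLR3, under repeats of the antioxidant response element and a thymidine kinase promoter, and a green-emitting luciferase, ELuc, under the thymidine kinase promoter alone, on a mouse artificial chromosome vector. The cells were therefore a selected reporter derivative of a tumor line and not normal hepatocytes. The labels number the replicates 1 to 3 without saying whether they were separate cultures, so the p-values measure only the spread between these libraries, which may be technical.

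Oncofetal genes are active in the embryonic liver, are turned down after birth and are expressed again in hepatoblastoma and hepatocellular carcinoma. AFP and GPC3 are used as clinical markers of these tumors. IGF2, DLK1 and PEG10 are imprinted growth-related genes expressed from the paternal allele, whereas IGF2BP1, IGF2BP3 and LIN28B encode RNA-binding proteins linked to the let-7 microRNAs, which hold fetal transcripts down in mature tissue.

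The let-7 family is shown because 3 members are classical let-7 targets or regulators. The 8 mature let-7-5p sequences in RefSeq share the seed at bases 2 to 8, marked in capitals for 3 of them, and differ outside it.
hsa-let-7a-5p: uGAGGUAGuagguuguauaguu
hsa-let-7e-5p: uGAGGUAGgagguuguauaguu
hsa-let-7i-5p: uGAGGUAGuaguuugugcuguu
The complement of this seed, CTACCTC, was searched on the transcript strand in the 3′ untranslated regions of MANE Select transcripts (GENCODE 44). It occurred in 1849 of 18780 regions (9.85%). It occurred 4 times in that of IGF2BP1, 4 times in that of LIN28B and 1 time in that of IGF2BP3, and it was not found in those of AFP, GPC3, IGF2, DLK1 or SPINK1. PEG10 was not among the transcripts searched. The untranslated regions differ in length, from 79 bases for SPINK1 to 6701 for IGF2BP1, and a longer region has more places for a match. A 23-base stretch around 1 match of each of the 3 genes follows, with the match in capitals.
IGF2BP1, match at base 1632: tgtgtgcgaagtaaaCTACCTCa
LIN28B, match at base 44: acccggttgcaaagtCTACCTCa
IGF2BP3, match at base 560: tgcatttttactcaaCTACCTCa
Positions count from the first base of the untranslated region. A match is a stretch of letters and not a measured site, and microRNAs were not measured here.

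The AFP promoter is shown because AFP was the most abundant of the 9 transcripts. RefSeq promoter windows, from 250 bases before to 50 after a transcription start, were matched for 4 members, in 5 windows. The AFP window, chr4:73435971-73436270 on the plus strand of GRCh38.p14, has capitals at GTTAAT, a half-site of the liver factor HNF1, and at TATAAA, the TATA box.
AFP: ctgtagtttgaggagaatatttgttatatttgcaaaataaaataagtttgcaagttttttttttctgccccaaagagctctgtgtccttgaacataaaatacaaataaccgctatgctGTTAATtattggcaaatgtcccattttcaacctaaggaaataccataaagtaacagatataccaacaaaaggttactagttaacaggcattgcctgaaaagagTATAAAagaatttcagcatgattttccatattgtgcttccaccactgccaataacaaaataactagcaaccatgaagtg
The first base of the half-site lay 132 bases and that of the TATA box 29 bases before the start used by RefSeq. GENCODE starts the AFP gene farther upstream, at 73431138, so this window lies inside the gene bounds given below. Only these exact letters were searched, so variants of either site in the window are not marked. On either strand, GTTAAT occurred in 6.88% and TATAAA in 11.5% of all 35116 promoter windows. The core of the antioxidant response element, TGACNNNGC, occurred in 13.3% of them and in none of the 5 windows of AFP, SPINK1, LIN28B and IGF2BP3, which says only that these letters are not in these windows.

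The libraries held 16420258 to 26714853 expected counts. The first principal component of all genes, which took 56.1% of the variance, did not follow treatment. Controls 1 and 2 shared its first side with sedanolide 3, and control 3 shared its second side with sedanolides 1 and 2. Mitochondrial transcripts made up 1.43% to 2.15% of counts in the 3 libraries of the first side and 4.23% to 5.22% in those of the second. What separates the sides was not tested, and the labels give no batch that does. AKR1B10, a target of NRF2, stood at 461 to 857 CPM in the 3 sedanolide libraries and at 53.2 to 92.8 CPM in the 3 controls, so sedanolide 3 and control 3 each lay with their own labelled group for that gene. Each member is given also within each side. Within a side 1 of the groups had only 1 library, so these differences come without a spread for that group. All 9 hepatocyte markers checked were detected. Their summed level was 22071 to 27541 CPM (read counts scaled to library size) in control and 17172 to 25677 in sedanolide libraries. Of the 9, 8 had a log2 fold change below 0, and 3 were lower in every sedanolide library than in any control, beside 9.65% of all genes. None of them passed the edgeR test described below. Markers of other cell types were low: VWF, CD3E, DCN and COL1A2 had 0 counts in every library.

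All 9 members were abundant enough to be tested. None passed the edgeR quasi-likelihood test with treatment alone, with a Benjamini-Hochberg adjusted p under 0.05 and a fold change over 1.5 required. By that rule 94 of 14102 genes, 0.667%, were called in either direction, and 44 genes, 0.312%, were lower with sedanolide. At an unadjusted p under 0.05 stood 2 of the 9 members, IGF2 and PEG10, beside 11.9% of all genes, and DESeq2 called 1 member, PEG10, beside 2.31% of all genes. The log2 fold changes of 6 members lay below 0 and those of 3 above it, with a median of -0.38 against 0.006 over all genes tested. This split depended on the scale and the fit. On the log2 TPM scale all 9 lay below 0, with a median of -0.51 against -0.074 over all genes, and with the library side as a term 5 lay below 0, with a median of -0.04 against 0.009. PEG10 and SPINK1 were lower in every sedanolide library than in any control library, as were 9.65% of all genes, and IGF2BP1 was higher in every one, as were 8.69%, although not in TPM. The 9 transcripts together took 1.41% to 2.98% of the counts in control libraries and 0.752% to 1.86% in sedanolide libraries, ranges that overlapped.

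**Figure D1:**
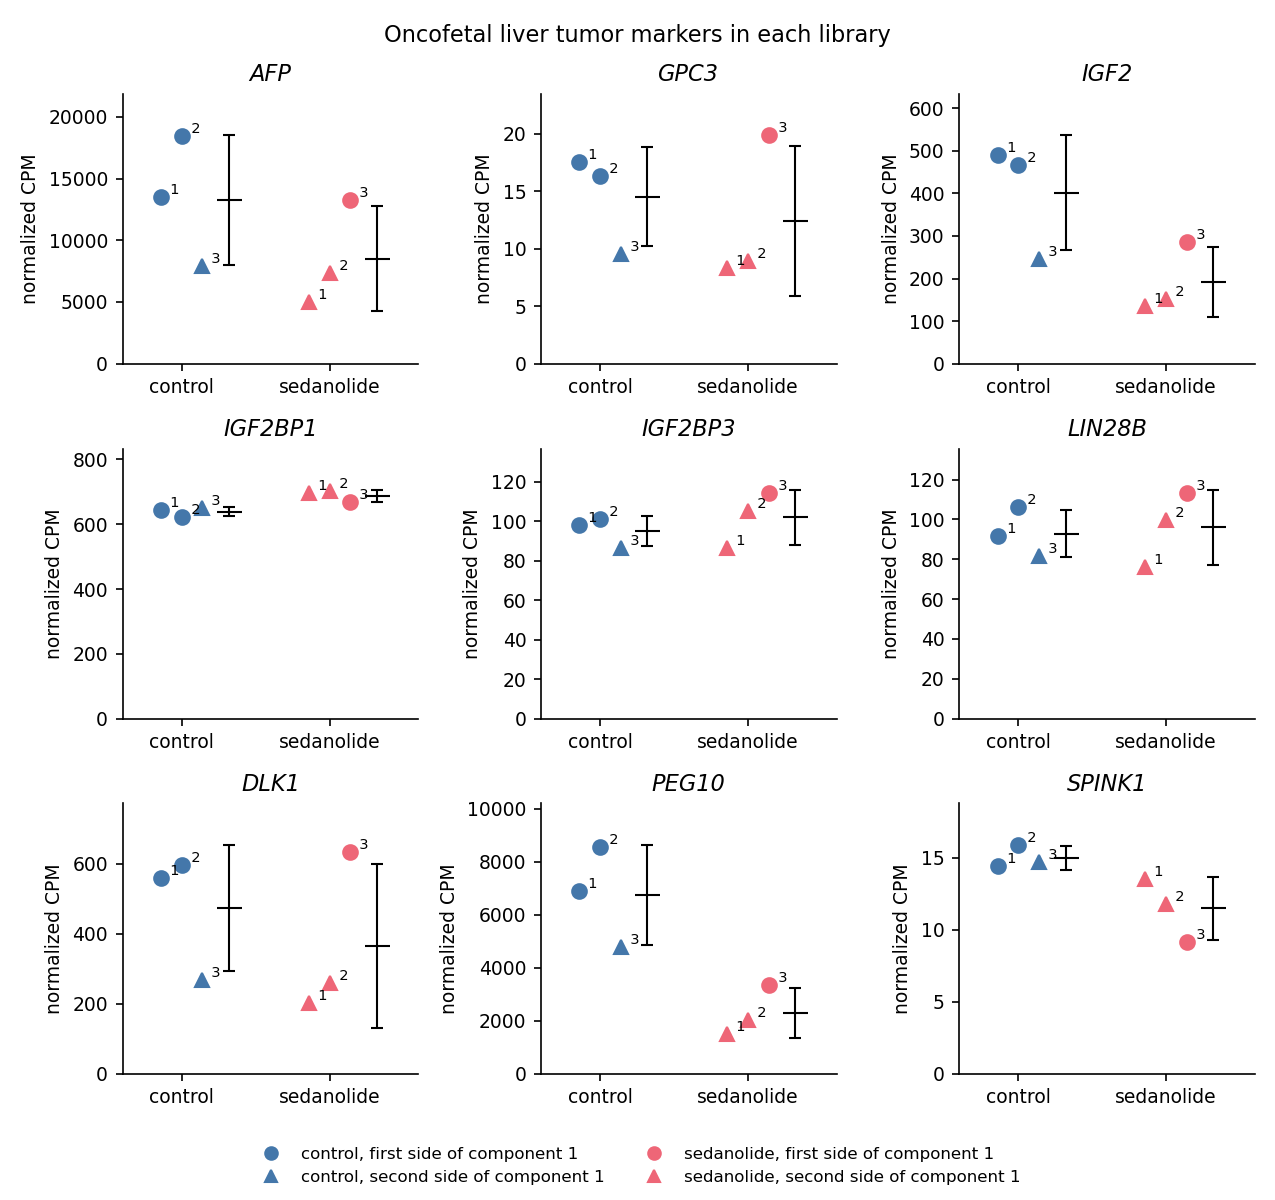
Normalized CPM of the 9 markers (linear axes from 0) in 3 control and 3 sedanolide libraries, with replicate numbers, circles for the first and triangles for the second side of the first principal component, and bars for the mean ± SD (n = 3). For PEG10 the sedanolide libraries lie between 1507 and 3348 CPM, below the controls at 4786 to 8573. In both groups the circles lie above the triangles for every marker but IGF2BP1 and SPINK1, so for PEG10 too.

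AFP (ENSG00000081051, chromosome 4, 73431138 to 73456174, plus strand, GRCh38) encodes alpha-fetoprotein, the main serum protein of the fetus and a relative of albumin. Its normalized level was 13494, 18439 and 7880 CPM in controls 1 to 3 and 4965, 7324 and 13262 CPM in sedanolides 1 to 3. Control 3 was low among the controls and sedanolide 3 high among the treated libraries, so the groups overlapped. The means were 13271 ± 5283 and 8517 ± 4275 CPM (SD, n = 3 each), a log2 fold change of -0.64 with a standard error of 0.423 and a 95% interval from -1.64 to 0.36 (edgeR adjusted p = 0.603). In a bulk sample, fewer cells that express a gene and less of its RNA per cell cannot be told apart. Within the first side sedanolide differed from control by -0.25 and within the second by -0.39 on the log2 scale. The sides themselves differed by more, 1.00 among controls and 1.14 among sedanolide libraries. AFP alone took 0.794% to 1.9% of the counts of a control library and 0.485% to 1.33% of those of a sedanolide library.

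AFP and albumin lie next to each other on chromosome 4 and are switched in opposite directions as the liver matures. ALB stood at 1218, 1249 and 1039 CPM in control and 803, 914 and 881 CPM in sedanolide libraries, which did not overlap. Its log2 fold change was -0.43 with a standard error of 0.125 (edgeR adjusted p = 0.241). The ratio of AFP to ALB in CPM was 11.1, 14.8 and 7.58 in controls and 6.18, 8.02 and 15.1 in sedanolide libraries. The ratio overlapped between the groups and, as for AFP, was lower in control 3 and in sedanolides 1 and 2 than in the other libraries.

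Among the 16 genes of the AFP locus and its regulators, 14 were tested and none was called, with 10 log2 fold changes below 0 and a median of -0.12. ZHX2 and ZBTB20, repressors of AFP after birth, were anchors of that list. ZHX2 was measured at 128, 133 and 89.2 CPM in control and 85.8, 96.2 and 148 CPM in sedanolide libraries, and it was high in the first-side libraries, as AFP was. ZBTB20 was measured at 8.6, 7.79 and 13.0 CPM in control and 19.5, 19.8 and 10.5 CPM in sedanolide libraries, high in the second-side ones. Neither was called (edgeR adjusted p = 0.918 for ZHX2 and 0.379 for ZBTB20), and for both the groups overlapped.

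GPC3 (ENSG00000147257, chromosome X, 133535745 to 133987100, minus strand) encodes glypican-3, a heparan sulfate proteoglycan anchored in the cell membrane that is a target for antibodies against liver tumors. GPC3 had 17.5, 16.3 and 9.55 CPM in control and 8.28, 8.88 and 19.9 CPM in sedanolide libraries. Control 3 was close to sedanolides 1 and 2, and sedanolide 3 was the highest of all, so the groups overlapped. The means were 14.5 ± 4.29 and 12.4 ± 6.54 CPM (SD, n = 3 each) and the log2 fold change -0.22, with a standard error of 0.388 and an interval from -1.14 to 0.69 (edgeR adjusted p = 0.848). Without sedanolide 3 the log2 fold change was -0.75, and GPC3 was not called. Sedanolide lay above control within the first side, by 0.24 on the log2 scale, and below it within the second, by -0.16. Between the sides GPC3 differed by 0.82 among controls and by 1.21 among sedanolide libraries.

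In the list of glypicans and heparan sulfate synthesis, 15 of 19 genes were tested, 6 with a log2 fold change above 0 and 9 below it, and none was called. The smallest p in that list belonged to HS6ST1, a heparan sulfate sulfotransferase, with a log2 fold change of 0.29 (edgeR adjusted p = 0.435). GPC4, the anchor among the other glypicans, had 2 to 7 counts and was not tested.

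IGF2 (ENSG00000167244, chromosome 11, 2129112 to 2158391, minus strand) encodes the fetal growth factor IGF-II, which signals through the receptors IGF1R and INSR and is cleared by IGF2R. IGF2 had 491, 468 and 245 CPM in controls and 135, 153 and 286 CPM in sedanolide libraries. Sedanolides 1 and 2 were below every control, but sedanolide 3 exceeded control 3, so the groups overlapped. The means were 402 ± 136 and 192 ± 82.7 CPM (SD, n = 3 each), a log2 fold change of -1.07 with a standard error of 0.365 and an interval from -1.93 to -0.21. The unadjusted p was 0.0218 and the edgeR adjusted p 0.313, so IGF2 was not called. The difference was alike within the sides, -0.74 in the first and -0.77 in the second on the log2 scale, and the sides differed by 0.97 and 0.99 within the groups. Exons of IGF2 overlap those of INS-IGF2 over 1460 bases and of ENSG00000284779 over 2711 bases on the same strand, both with 0 counts, and those of ENSG00000240801 over 373 bases, which had 1.71% as many counts as IGF2.

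Of the 14 genes for IGF2 receptors and binding proteins, 7 were tested, and 1 was called. This was IGFBP1, a secreted binding protein made by the liver. IGFBP1 was found at 941, 1128 and 918 CPM in control and 499, 460 and 542 CPM in sedanolide libraries, without overlap. IGFBP1 fell, with a log2 fold change of -0.99 and a standard error of 0.134 (edgeR adjusted p = 0.0300). The call was lost when control 1, 2 or 3 or sedanolide 1 or 2 was left out, with edgeR adjusted p of 0.0726 to 0.244 and log2 fold changes of -1.05 to -0.89. The receptors were not called: the log2 fold change was -0.24 for IGF1R, 0.13 for IGF2R and -0.21 for INSR (edgeR adjusted p = 0.841, 0.899 and 0.818). IGF1R was measured at 263, 337 and 167 CPM in control and 125, 179 and 344 CPM in sedanolide libraries, low in the second-side ones.

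DLK1 (ENSG00000185559, chromosome 14, 100725705 to 100738224, plus strand) encodes a transmembrane protein with epidermal growth factor repeats that marks hepatoblasts and resembles the NOTCH ligands. DLK1 had 560, 595 and 267 CPM in control and 201, 260 and 634 CPM in sedanolide libraries. The groups overlapped fully, with the highest library and the lowest both being sedanolide ones. The means were 474 ± 180 and 365 ± 235 CPM (SD, n = 3 each) and the log2 fold change -0.38, with a standard error of 0.48 and an interval from -1.51 to 0.75 (edgeR adjusted p = 0.788). Sedanolide differed from control by 0.14 within the first side and by -0.23 within the second. DLK1 had the widest gap between the sides of the 9 members, 1.11 among controls and 1.47 among sedanolide libraries on the log2 scale.

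The NOTCH pathway around DLK1 had 9 of 13 genes tested and none called. JAG1, a NOTCH ligand, had the smallest p of that list and was measured at 26.6, 33.9 and 14.8 CPM in control and 32.0, 46.2 and 87.3 CPM in sedanolide libraries. Its log2 fold change was 1.13, but control 2 exceeded sedanolide 1 and JAG1 was not called (edgeR adjusted p = 0.364). The receptor NOTCH2 had a log2 fold change of -0.06 (edgeR adjusted p = 0.930).

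PEG10 (ENSG00000242265, chromosome 7, 94656325 to 94669695, plus strand) is a gene derived from a retrotransposon that is needed for the placenta and is often amplified or overexpressed in liver cancer. It was measured at 6881, 8573 and 4786 CPM in control and 1507, 2013 and 3348 CPM in sedanolide libraries. Every sedanolide library was below every control. The means were 6747 ± 1897 and 2289 ± 951 CPM (SD, n = 3 each), a fold change of 0.339. The log2 fold change of -1.56, with a standard error of 0.338 and an interval from -2.36 to -0.76, was the farthest from 0 of the 9 members. The unadjusted p was 0.00237, and the edgeR adjusted p over all genes was 0.132, so PEG10 was not called. Within the first side the difference was -1.20 and within the second -1.46 on the log2 scale. The sides themselves differed by 0.68 among controls and by 0.94 among sedanolide libraries. PEG10 took 0.482% to 0.882% of the counts of a control library and 0.147% to 0.337% of those of a sedanolide library.

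Whether PEG10 was called depended on the fit. DESeq2, the tool used in the study, gave a log2 fold change of -1.55 and called it (adjusted p = 0.000624). With sedanolide 3 left out, edgeR gave -1.94 and called it (adjusted p = 0.0284), in a fit that called 0.956% of all genes. PDGFRB, a marker of fibroblasts and stellate cells, was also lower in every sedanolide library, with a log2 fold change of -1.42 (edgeR adjusted p = 0.155). On that marker list 1 of 4 genes was tested. The summed level of the 4 was 15 to 23.9 CPM in control and 5.22 to 11.3 CPM in sedanolide libraries, with DCN and COL1A2 at 0 counts in all 6. The 2 biliary markers, of which KRT19 was tested, summed to 24.1 to 44.4 CPM in control and 10.5 to 20.3 CPM in sedanolide libraries. The part of these markers in the PEG10 difference was not tested.

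PEG10 shares its imprinted region with SGCE, which starts next to it on the opposite strand. The exons of the pair overlap over 219 bases, and SGCE had 0.465% as many counts as PEG10. SGCE had 20, 22.7 and 22.9 CPM in controls and 20.1, 19.5 and 19 CPM with sedanolide, so its groups overlapped (log2 fold change -0.16, edgeR adjusted p = 0.627). Of 17 imprinted neighbours and genes of the imprinting network, 11 were tested and none was called, with a median log2 fold change of -0.13. The paraoxonase gene PON1 had the smallest p in that list, with a log2 fold change of -1.39 from 6 to 25 counts a library (edgeR adjusted p = 0.226). H19, the maternally expressed noncoding RNA beside IGF2, had 18, 15 and 22 counts in control and 8, 16 and 3 counts in sedanolide libraries (log2 fold change -1.32, edgeR adjusted p = 0.407). MEG3, the maternally expressed RNA beside DLK1, had 0 counts in every library.

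IGF2BP1 (ENSG00000159217, chromosome 17, 48997385 to 49056145, plus strand) encodes an RNA-binding protein that binds IGF2, MYC and other transcripts. Its level was 644, 623 and 650 CPM in control and 696, 702 and 668 CPM in sedanolide libraries. In CPM every sedanolide library was above every control, by a small margin, but in TPM the groups overlapped, at 109, 112 and 103 in control and 101, 106 and 115 in sedanolide libraries. The means were 639 ± 14.6 and 688 ± 18.4 CPM (SD, n = 3 each) and the log2 fold change 0.11, with a standard error of 0.102 and an interval from -0.13 to 0.35 (edgeR adjusted p = 0.714). It was the steadiest member across the sides, which differed by -0.04 among controls and by -0.07 among sedanolide libraries. Sedanolide differed from control by 0.08 within the first side and by 0.10 within the second on the log2 scale.

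IGF2BP3 (ENSG00000136231, chromosome 7, 23310209 to 23470491, minus strand), its paralog, was measured at 97.8, 101 and 86.5 CPM in control and 86.6, 105 and 114 CPM in sedanolide libraries. The groups overlapped. The log2 fold change was 0.10, with a standard error of 0.14 and an interval from -0.23 to 0.43 (edgeR adjusted p = 0.815). Within the first side the difference from control was 0.20 and within the second 0.14. The exons of IGF2BP3 overlap 1521 bases of MALSU1 on the opposite strand, and MALSU1 had 66.1% as many counts. The library kit keeps the strand, but the sources used here do not say whether counting used it, so the level of IGF2BP3 is uncertain to that extent.

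LIN28B (ENSG00000187772, chromosome 6, 104936616 to 105083332, plus strand) encodes the protein that blocks let-7 maturation. LIN28B had 91.7, 106 and 81.6 CPM in control and 75.9, 99.7 and 113 CPM in sedanolide libraries. The lowest and the highest library were both sedanolide ones. The log2 fold change was 0.05, with a standard error of 0.178 and an interval from -0.37 to 0.47 (edgeR adjusted p = 0.931). Within the first side the difference from control was 0.20 and within the second 0.09. In TPM, the log2 difference was -0.01 for IGF2BP1, -0.02 for IGF2BP3 and -0.07 for LIN28B, on the other side of 0 from that in CPM for all 3, and none was called.

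Around these RNA-binding proteins, 21 of 22 genes of the LIN28 and let-7 axis were tested, 12 with a log2 fold change above 0 and 9 below it, and none was called. The paralogs LIN28A and IGF2BP2 had log2 fold changes of -0.46 and 0.20 (edgeR adjusted p = 0.449 and 0.767). The let-7 target HMGA2 had -0.21 (edgeR adjusted p = 0.660). MYC, a transcription factor whose mRNA IGF2BP1 binds, had the smallest p of that list. It was measured at 219, 213 and 163 CPM in control and 271, 286 and 344 CPM with sedanolide, without overlap (log2 fold change 0.60, edgeR adjusted p = 0.206).

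SPINK1 (ENSG00000164266, chromosome 5, 147824572 to 147831671, minus strand) encodes a Kazal-type inhibitor of trypsin that liver tumors secrete. It was measured at 14.4, 15.9 and 14.7 CPM in control and 13.5, 11.8 and 9.16 CPM in sedanolide libraries. The controls lay close together and every sedanolide library was below them. The means were 15 ± 0.825 and 11.5 ± 2.19 CPM (SD, n = 3 each) and the log2 fold change -0.39, with a standard error of 0.167 and an interval from -0.78 to 0.01. The unadjusted p was 0.0529 and the edgeR adjusted p 0.426. Unlike AFP or DLK1 it was not high in sedanolide 3, and the difference from control was -0.72 within the first side and -0.22 within the second on the log2 scale.

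Of 10 genes listed around SPINK1, 5 were tested, all with a log2 fold change below 0 and none called. The 4 proteases of the list, PRSS1, PRSS2, PRSS3 and CTRC, and the inhibitor SPINK5 had 0 to 1 counts a library and were not tested. The 5 tested were SERPINA1, EGFR and 3 genes of interleukin-6 signaling, IL6R, IL6ST and STAT3, so no protease was tested. SERPINA1, the gene of alpha-1-antitrypsin, had the smallest p, with a log2 fold change of -0.15 (edgeR adjusted p = 0.679). EGFR, to which SPINK1 protein can bind, had -0.02 (edgeR adjusted p = 0.965).

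**Figure D2:**
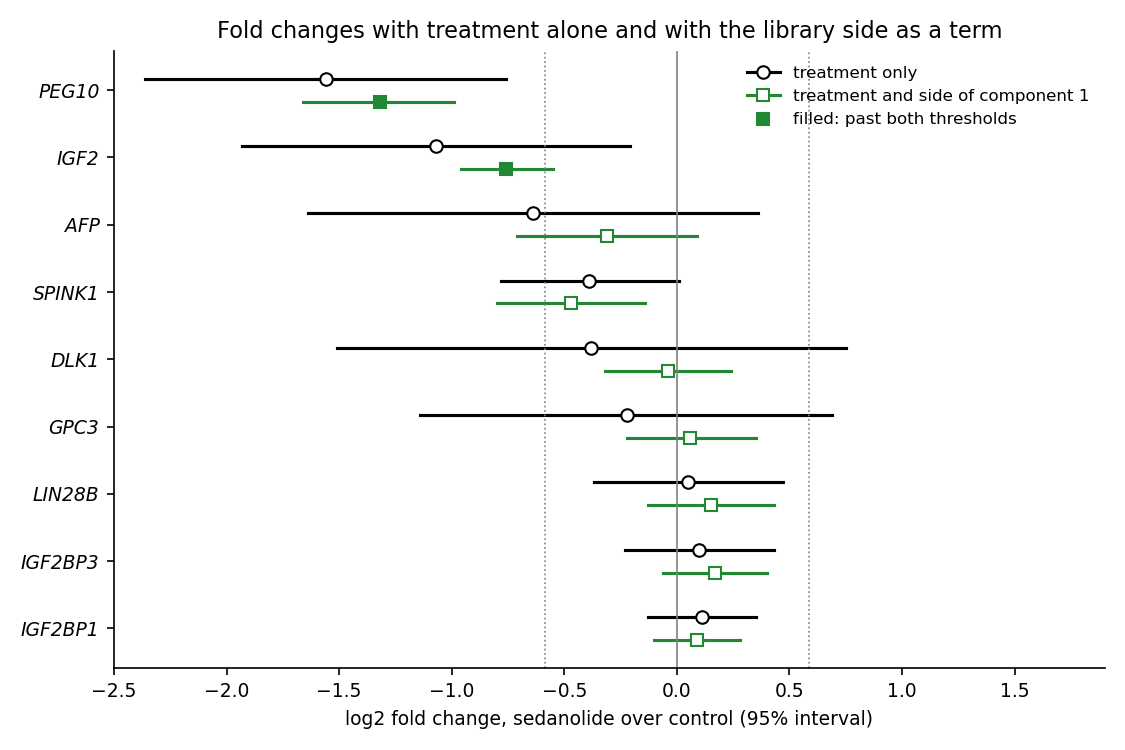
Log2 fold change of sedanolide over control for each marker with its 95% interval (horizontal axis), from edgeR with treatment alone (black circles) and with the side of the first principal component as a further term (green squares), and dotted lines at the 1.5-fold threshold. Filled symbols mark PEG10 (-1.32) and IGF2 (-0.76), which passed both thresholds in the fit with the side term only.

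The side of the first component was also entered as a term beside treatment. It was taken from the expression values themselves, and its use here was known from earlier results, so this fit is an alternative and not independent evidence. It called 2 of the 9 members, beside 2.69% of all genes. PEG10 had a log2 fold change of -1.32 with a standard error of 0.147 (interval -1.66 to -0.99, edgeR adjusted p = 0.00206). IGF2 had -0.76 with a standard error of 0.0904 (interval -0.96 to -0.55, edgeR adjusted p = 0.00257). For both, the standard error was smaller than with treatment alone and the fold change closer to 0. The fibroblast and stellate marker PDGFRB was called in that fit too, with a log2 fold change of -1.19 and a standard error of 0.134 (edgeR adjusted p = 0.00208), and its part in the PEG10 difference was not tested.

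The other members did not pass in that fit. AFP had a log2 fold change of -0.31 (interval -0.71 to 0.09), DLK1 -0.04 (interval -0.32 to 0.24) and GPC3 0.06 (interval -0.22 to 0.35), with edgeR adjusted p of 0.378, 0.904 and 0.841. These 3 intervals are narrower than with treatment alone, and that of AFP still holds a fall past 1.5-fold. SPINK1 had -0.47 with a standard error of 0.146 (edgeR adjusted p = 0.116), and the 3 RNA-binding protein genes lay between 0.09 and 0.17.

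**Figure D3:**
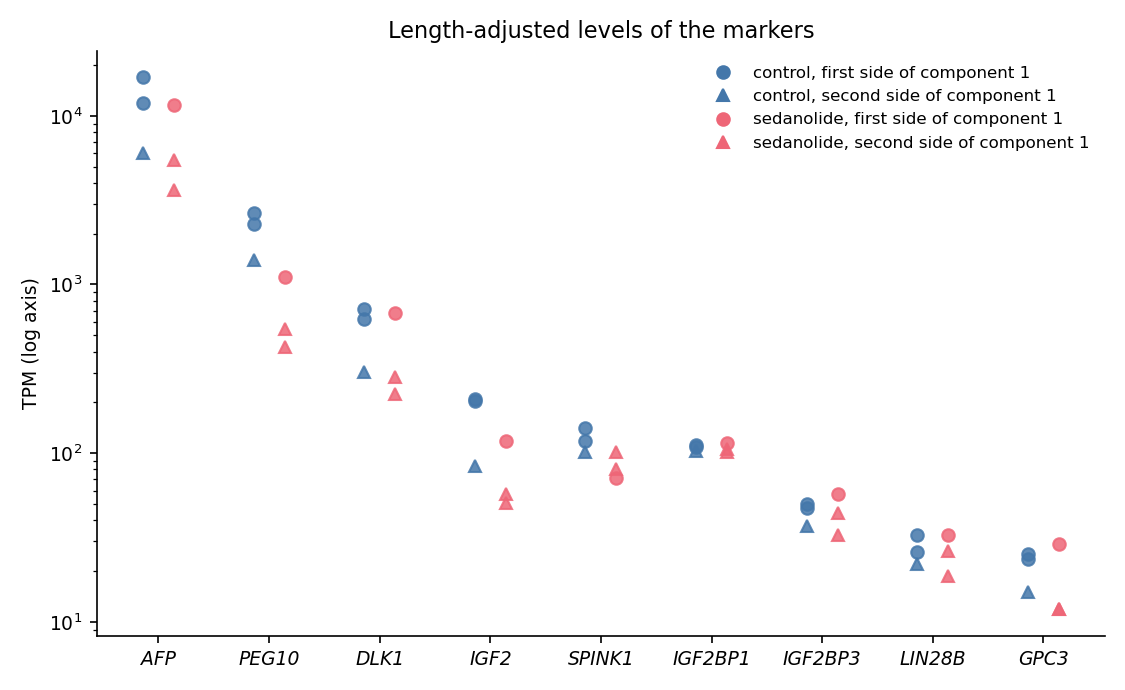
TPM (log axis), the length-adjusted transcript level, of each marker in the 3 control (blue) and 3 sedanolide (red) libraries, with circles for the first and triangles for the second side of the first principal component. AFP lies between 3609 and 16903 TPM and GPC3 between 11.9 and 29.1 TPM.

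Levels were compared between genes in TPM, which, unlike CPM, adjusts for transcript length. AFP was highest, at 11880, 16903 and 5990 TPM in control and 3609, 5446 and 11517 TPM in sedanolide libraries. It ranked 2, 1 and 14 among all genes of the table in the controls and 34, 16 and 3 in the sedanolide libraries. PEG10 was next, at 2288, 2648 and 1389 TPM in control and 425, 546 and 1109 TPM in sedanolide libraries. Its rank went from 74, 65 and 122 to 312, 233 and 141. DLK1 followed in the controls, at 625, 711 and 303 TPM, and had 224, 282 and 675 TPM in the sedanolide libraries.

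The controls separated AFP, PEG10, DLK1 and the rest without overlap, whereas in the sedanolide libraries the ranges of PEG10 and DLK1 overlapped. Within each single sedanolide library PEG10 was still above DLK1. IGF2 had 83.6 to 208 TPM in the controls, SPINK1 102 to 140 TPM and IGF2BP1 103 to 112 TPM, and the order of these 3 could not be told from their spread. With sedanolide they had 50.5 to 118, 71.5 to 101 and 101 to 115 TPM. IGF2BP3 followed at 37.1 to 49.9 TPM in control and 32.7 to 57.4 TPM in sedanolide libraries. LIN28B, at 22.0 to 32.6 TPM, and GPC3, at 15 to 25.3 TPM in the controls, were lowest. Their ranges overlapped, as they did with sedanolide at 18.7 to 32.8 and 11.9 to 29.1 TPM. Within every single library LIN28B was above GPC3. SPINK1, which had fewer CPM than IGF2BP1, overlapped with it in TPM, and its exons cover 1361 bases against 9631 for IGF2BP1.

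Tested with limma on log2(TPM + 1), none of the 9 members was called, beside 0.545% of the 11004 genes in that table. PEG10 had a log2 difference of -1.68 on that scale (limma adjusted p = 0.167) and IGF2 one of -1.12 (limma adjusted p = 0.409). AFP had -0.80 (limma adjusted p = 0.605). With sedanolide 3 left out, PEG10 was called in this table too, beside 0.482% of its genes.

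The members differed in how they varied over the 6 libraries. Likeness was measured as the root mean square difference of mean-centred log2 CPM, which the shared libraries make a description only. The values were not scaled, so genes that varied little stand close to each other whatever their pattern. The closest pair was IGF2BP3 and LIN28B, at 0.0792, followed by IGF2BP1 and IGF2BP3 at 0.155, GPC3 and DLK1 at 0.186 and AFP and DLK1 at 0.194. IGF2 and PEG10 stood at 0.304. The farthest pair was IGF2BP1 and PEG10, at 0.961. Among all genes tested, those closest to AFP were CPE (0.0595) and ARSB (0.0599), those closest to GPC3 were PKD1 (0.0630) and ENSG00000255389 (0.0732), and those closest to IGF2 were HEPACAM (0.0871) and ENSG00000274253 (0.108).

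**Figure D4:**
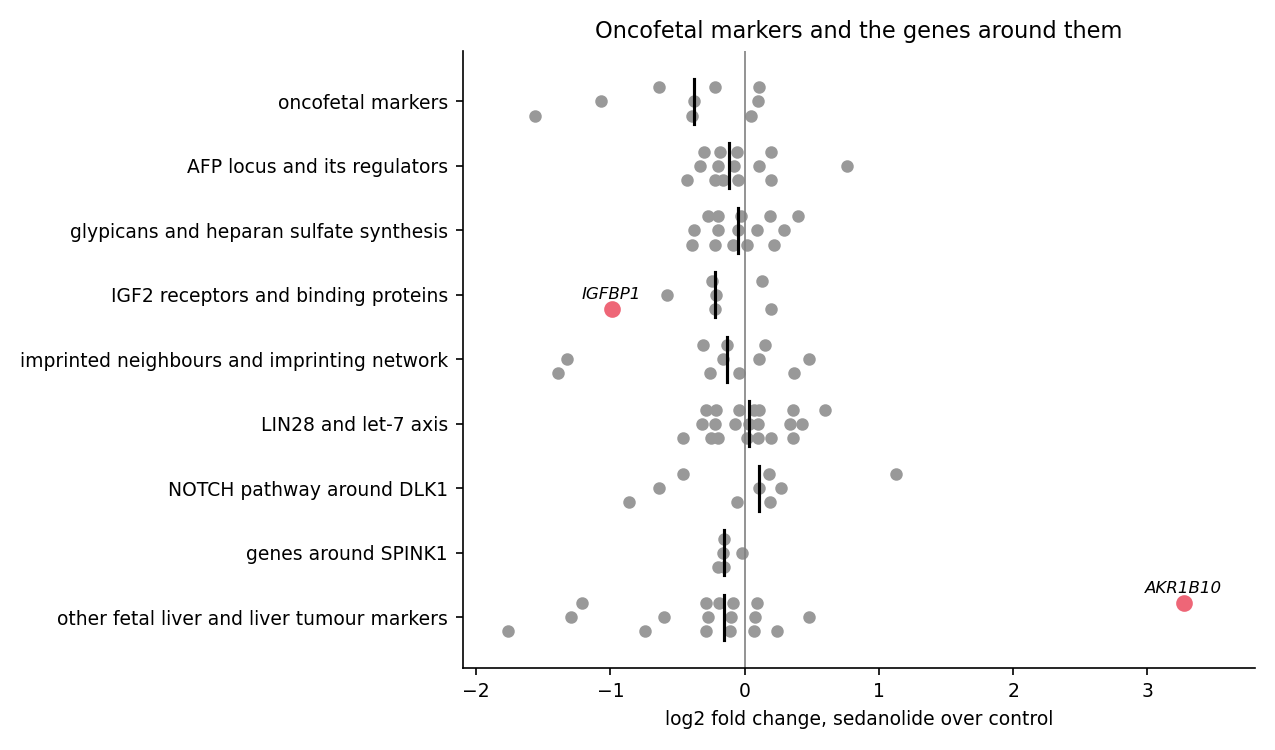
Log2 fold change of sedanolide over control (horizontal axis, edgeR with treatment alone) for the 9 markers and the tested genes of 8 related lists, with 1 point a gene and a black bar at each list's median. Red points passed both thresholds: IGFBP1 at -0.99 and AKR1B10 at 3.27.

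Of 25 other fetal liver and liver tumor markers, 18 were tested, with 6 log2 fold changes above 0, 12 below it and a median of -0.15. In every sedanolide library 6 of the 18 were lower than in any control, beside 9.65% of all genes, and 2 were higher, beside 8.69%. At an unadjusted p under 0.05 stood 6 lower and 2 higher genes, beside 11.9% of all genes in either direction. None of the lower genes was called by edgeR with treatment alone. AKR1B10, an aldo-keto reductase raised in liver tumors and a known NRF2 target, was called. It was measured at 69.3, 53.2 and 92.8 CPM in control and 857, 752 and 461 CPM in sedanolide libraries. AKR1B10 rose by a log2 fold change of 3.27 with a standard error of 0.307 (edgeR adjusted p = 0.0138). Without control 1, control 2 or sedanolide 2 it was not called (log2 fold changes of 3.23, 3.09 and 3.19, edgeR adjusted p = 0.156, 0.082 and 0.109). The growth factor MDK was measured at 72.5, 70.1 and 55.8 CPM in control and 75.2, 83.5 and 117 CPM in sedanolide libraries, without overlap and not called (log2 fold change 0.48, edgeR adjusted p = 0.404). The surface marker EPCAM had a log2 fold change of 0.09 (edgeR adjusted p = 0.855), and the stem cell factor SALL4 had 1 to 12 counts and was not tested.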

How the data were processed

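Polyadenylated RNA was sequenced as paired reads from directional libraries. Per the labels and methods, the authors used FastQC, Trimmomatic, STAR on GRCh38 and RSEM, with versions and annotation release not given in the sources used here. They deposited RSEM expected counts per gene and a table of log2(TPM + 1) for part of the genes, whose filter is not stated; the added 1 was read from the values. Column names were matched to the labelled groups and replicate numbers.

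Expected counts, of which 7.9% to 8.59% a library were not whole, were rounded. Genes were kept by filterByExpr, scaled by trimmed mean of M values and tested with the robust quasi-likelihood test of edgeR 4.0.16 in R 4.3.3 on all 3 control and 3 sedanolide libraries, with Benjamini-Hochberg adjustment over the 14102 genes and the 2 luciferase reporters tested. CPM are normalized by the same factors, and standard errors were derived from the test statistic. A gene was called at an adjusted p under 0.05 and a fold change over 1.5. The deposited log2 values were tested with limma 3.58.1. The study itself used DESeq2 at these thresholds, within the iDEP web application, and reported fewer genes than DESeq2 called here. DESeq2 1.42.0, limma-voom, other scalings and filters, a replicate block, the side term and fits leaving out each library were alternatives. The test was checked on simulated data.

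The members, the 8 related lists and the marker lists were chosen with earlier results of these data known. Named were all members, anchor genes of each list, each called gene of a list, its gene with the smallest p, and the 2 genes most like AFP, GPC3 and IGF2. Positions came from GENCODE 44. Replicate libraries differed by more than sampling noise. Marker lists for blood and endothelial cells had summed levels of 14.1 to 20.1 and 4.02 to 5.2 CPM in control and 18.8 to 19.8 and 3.89 to 5.29 CPM in sedanolide libraries.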

Additional observations from a re-analysis of the deposited data

How the results depend on the processing

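Over the 15 alternative fits to the counts, the direction was kept for AFP (log2 -1.11 to -0.31), IGF2 (-1.48 to -0.76), IGF2BP1 (0.06 to 0.13), IGF2BP3 (0.01 to 0.20), DLK1 (-1.04 to -0.04), PEG10 (-1.94 to -1.32) and SPINK1 (-0.52 to -0.25). Adjusted p over the alternatives ran from 0.000624 to 0.696 for PEG10 and from 0.00257 to 0.921 for IGF2. GPC3 ran from -0.75, without sedanolide 3, to 0.06, its value with the side term. On the log2 TPM scale IGF2BP1 (-0.01), IGF2BP3 (-0.02) and LIN28B (-0.07) lay below 0. LIN28B turned to -0.03 without control 3 and to -0.08 without sedanolide 3, and leaving out 1 library gave it -0.08 to 0.19. The cause of these changes was not tested.

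Against 0 members, 2 related genes and 94 genes in all, DESeq2 called 1, 6 and 326, and the side term 2, 9 and 379. Keeping every gene with at least 1 count called 157 genes in all. Leaving out 1 library gave 0 to 1 members, 0 to 2 related genes and 0 to 135 genes in all. Without control 1 the genes called in all were 0, and 1065 had an unadjusted p under 0.05. Without control 2 they were 7, without control 3 28, without sedanolide 1 12, and without sedanolide 2 0, with 887 at an unadjusted p under 0.05. Without sedanolide 3 they were 135. From the log2 TPM values, 0 to 1 members were called when 1 library was left out, the 1 being PEG10 without sedanolide 3 (beside 53 of 11004 genes in all, with 0 to 15 in the other such fits), and 0 with the other pseudocount, filter or block.

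With the replicate block, 0 members, 0 related genes and 0 genes in all were called by edgeR, 770 with an unadjusted p under 0.05, and PEG10 had a log2 fold change of -1.61. Same-numbered libraries did not deviate together (correlations of -0.133, -0.295 and -0.73), so the numbers were not taken to pair the samples. The precision of every interval is limited by 3 libraries a group.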

Other observations

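The side of the first component was taken from the expression values themselves. With it as a term, edgeR called 9 related genes out of 136, not all of them tested, beside 2.69% of all genes tested. Besides AKR1B10 and IGFBP1, these were JAG1 (log2 fold change 1.47, adjusted p = 0.00178), MYC (0.72, 0.00239), MDK (0.62, 0.00945), KRT19 (-1.43, 0.0043), CCN2 (-0.65, 0.0116), CD24 (-1.83, 0.0202) and CLDN6 (-0.73, 0.031). KRT19 encodes a keratin, CD24 and CLDN6 encode surface proteins, and CCN2 is a matrix-associated growth factor. These 4 were named after their values were seen. Other genes of the same list did not pass in that fit, among them EPCAM (-0.03, 0.889), SOX9 (0.03, 0.93), SOX4 (-0.15, 0.551) and PROM1 (-1.23, 0.0914). KRT19 was measured at 37.0, 23.8 and 44 CPM in control and 20.2, 14.9 and 10.3 CPM in sedanolide libraries, lower in every sedanolide library. With treatment alone edgeR did not call KRT19 (log2 fold change -1.21, adjusted p = 0.186), but DESeq2 did. DESeq2, also with treatment alone, called CCN2, CD24 and MYC too, beside 2.31% of all genes. CD24 rested on 6 to 24 counts a library.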
